A study of Drosophila melanogaster with 6 samples.

Results

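The proteasome subunit genes of the fruit fly (Drosophila melanogaster) were taken as every gene of the deposited table whose symbol begins with Prosalpha, Prosbeta, or Rpn or Rpt followed by a digit, which gave 43 of 15010 genes. Of these, 32 carry a plain subunit symbol and are called ubiquitous here, and 11 carry the paralog suffix T or R and are called testis-type. Polyadenylated RNA from tissue labelled intestine was sequenced in 6 libraries of adult progeny. The 3 InR-DN libraries came from progeny of MTD-GAL4/InR-DN mothers, whose germline driver MTD-GAL4 expressed a dominant-negative insulin receptor, and the 3 control libraries from progeny of MTD-GAL4/+ mothers. Both kinds of mother were mated to Oregon R males, so all 6 libraries share the paternal strain and the maternal driver. The comparison asks whether expression in the progeny differs by expression of this receptor in the maternal germline. Progeny can inherit the transgenes, so an effect of the mother and an effect of an inherited transgene cannot be told apart. The labels used here give neither age nor sex of the progeny. They do not say if replicate libraries represent different flies or matings, so every p-value rests on library-to-library spread that could be technical.

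The 26S proteasome degrades proteins that have been tagged with ubiquitin. Its barrel-shaped 20S core is built from rings of alpha subunits, which form the gate, and rings of beta subunits, some of which carry the proteolytic sites. A 19S cap recognises tagged proteins, removes the ubiquitin, and unfolds and feeds the chain into the core. The base of the cap holds the ATPases (Rpt subunits) and ubiquitin receptors, and the lid holds mostly scaffold subunits (Rpn) and the deubiquitinase Rpn11. In Drosophila several subunits have paralogs that are expressed in the male germline, from which the testis-type group takes its name here.

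Values are TPM, a transcript abundance scaled by gene length and to the same total in every library, so that levels can be set side by side between genes. Whole reads recovered from the TPM values of 14071 genes summed to 31593965 to 39452014 per InR-DN library and to 33318713 to 42022916 per control library. Libraries labelled intestine held gut genes and also genes of other organs. The 8 genes listed as gut markers summed to 12739 to 18836 TPM in InR-DN libraries and to 17370 to 18260 TPM in controls. Most of this sum was alphaTry, betaTry and yip7, while pdm3 of the same list lay at only 2.77 to 3.06 TPM. The 8 ovary and oocyte markers summed to 1303 to 1568 TPM in InR-DN libraries and to 1325 to 1454 TPM in controls, and the 4 eye markers to 3178 to 4346 TPM in InR-DN libraries and to 3576 to 4006 TPM in controls. Testis markers were near 0, with 15 of 16 found below 1 TPM in every library, and their sum lay at 4.68 to 6.86 TPM in InR-DN libraries and at 6.23 to 7.26 TPM in controls. Most of that sum was mia, at 4.02 to 6.31 TPM over the 6 libraries. The values below are thus values of these mixed libraries. InR, the insulin receptor gene, averaged 20.5 ± 2.11 TPM in InR-DN libraries and 21.4 ± 0.998 TPM in controls (SD, n = 3 per group), which does not separate any transgene from the endogenous gene.

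All but 1 of the 32 ubiquitous subunit genes were abundant in all 6 libraries. They lay between 119 and 371 TPM in any library, with 3491 to 14189 reads behind each value, and ranked from number 386 to number 1219 of 15010 genes by mean TPM. The exception was Prosalpha1, described at the end of this section. Over all ubiquitous members the summed level was 7669, 6684 and 7816 TPM in InR-DN replicates 1 to 3, against 6799, 6807 and 7293 TPM in control replicates 1 to 3. InR-DN replicate 2 had the lowest sum of the 6 libraries, and InR-DN replicates 1 and 3 the highest, so the groups overlapped.

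**Figure D1:**
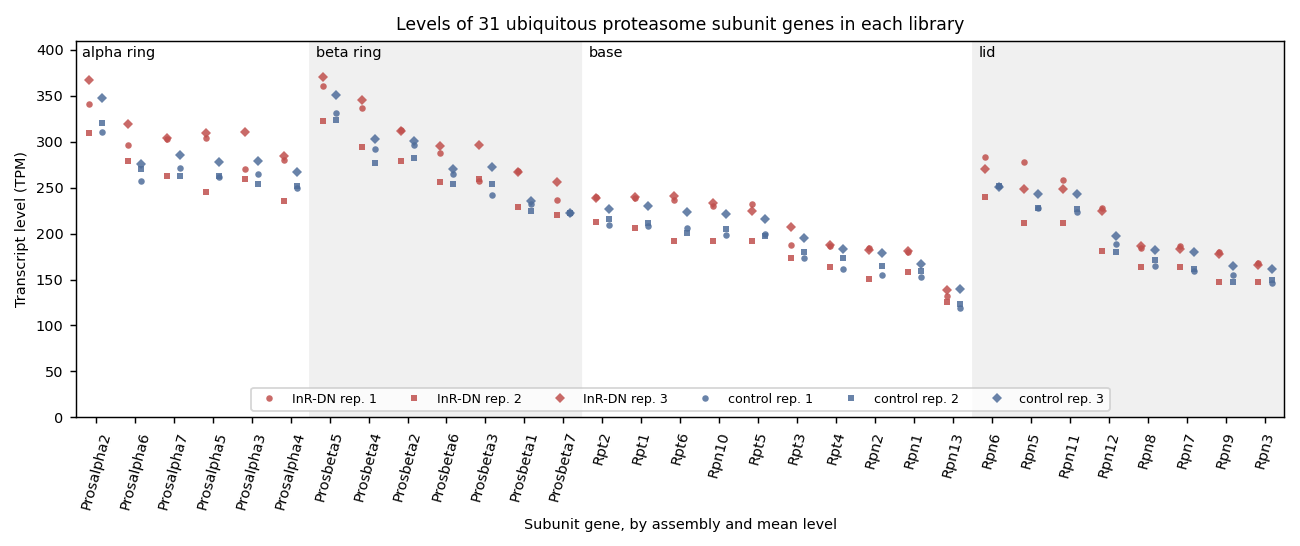
TPM (linear axis from 0) of the 31 abundant ubiquitous subunit genes, with genes ordered by assembly and mean level on the horizontal axis and 1 point per library (InR-DN left, control right of each position; the symbol shape gives the replicate). Prosbeta5 was the highest and Rpn13 the lowest gene in all 6 libraries, and alpha and beta ring genes lay above most base and lid genes.

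Core genes were set higher than cap genes. The median over the 13 measured alpha and beta genes was 297, 260 and 310 TPM in InR-DN replicates 1 to 3 and 265, 262 and 278 TPM in control replicates 1 to 3. The median over the 18 base and lid genes was 208, 177 and 216 TPM in InR-DN replicates 1 to 3 and 181, 179.95 and 196 TPM in control replicates 1 to 3. The ratio of these medians of levels was 1.44 ± 0.0194 in InR-DN libraries and 1.45 ± 0.0254 in controls (SD, n = 3 per group), so it differed between the groups by less than the spread between replicates. The division was not complete, since Rpn6, Rpn5 and Rpn11 of the lid had higher means than Prosbeta7. Core genes also had shorter exon length, at 815 to 1215 bases with a median of 973, against 995 to 3412 bases with a median of 1589 for cap genes. Exon length is the divisor in TPM, and its part in the ratio was not tested.

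In the core, Prosbeta5, the subunit with chymotrypsin-like activity, was the highest member, at 360, 323 and 371 TPM in InR-DN libraries and 331, 324 and 351 TPM in controls. Prosbeta2, with trypsin-like activity, lay at 313, 279 and 312 TPM in InR-DN libraries and 296, 282 and 301 TPM in controls. Prosbeta1, with caspase-like activity, was lower, at 268, 229 and 267 TPM in InR-DN libraries and 232, 225 and 235 TPM in controls. The 3 catalytic genes thus kept the order Prosbeta5, Prosbeta2, Prosbeta1 in each of the 6 libraries. The lowest beta gene was Prosbeta7, at 237, 221 and 256 TPM in InR-DN libraries and 223, 222 and 223 TPM in controls. Of the alpha genes, Prosalpha2 was the highest, at 342, 309.7 and 367 TPM in InR-DN libraries and 310.1, 320.0 and 347 TPM in controls. By mean level Prosalpha4 was the lowest alpha gene with a measurable level, at 280.4, 235 and 284 TPM in InR-DN libraries and 249.6, 252 and 267 TPM in controls. For each of these genes InR-DN replicate 2 was the lowest library of its group and the 2 groups overlapped.

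In the cap, the ATPase gene Rpt2 had the highest mean of the base, though it lay above the next gene, Rpt1, in only 4 of 6 libraries, at 240.4, 213 and 239 TPM in InR-DN libraries and 209.6, 216 and 227 TPM in controls. Rpn13, a ubiquitin receptor, was the lowest, at 132, 125 and 139 TPM in InR-DN libraries and 119, 123 and 139.5 TPM in controls. Rpn10, also a ubiquitin receptor, was higher, at 229.8, 192 and 233 TPM in InR-DN libraries and 199, 205 and 221 TPM in controls. Rpn10 exceeded Rpn13 in every library, and the groups overlapped for all 3 of these base genes. The lid was led by its scaffold subunit Rpn6, at 283, 240.1 and 270.5 TPM in InR-DN libraries and 252, 252 and 250.2 TPM in controls. By mean level its lowest gene was Rpn3, at 168, 147 and 166 TPM in InR-DN libraries and 146, 149.97 and 161 TPM in controls. Rpn11, which removes ubiquitin chains from substrates, lay at 258, 212 and 249 TPM in InR-DN libraries and 223, 227 and 243 TPM in controls. Ordered by mean level, 29 of the 30 neighbouring pairs had overlapping ranges over the 6 libraries, and the exception was Rpn3 above Rpn13.

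No proteasome gene passed the test between the groups. In limma's moderated test on log2(TPM + 1), with Benjamini-Hochberg adjustment over 10816 genes, 0 of the 32 members tested reached an adjusted p of 0.05, against 0% of all genes tested, and 0 members had an unadjusted p under 0.05, against 1.13% of all genes with higher and 2.02% with lower means. With limma voom on the recovered reads, 0 of the members and 0 of 10786 genes passed, and 334 genes had an unadjusted p under 0.05. The 31 ubiquitous genes tested all had higher mean log2 levels in InR-DN libraries, by log2 fold changes of 0.04 to 0.16. Their median was 0.07, which corresponds to a level 5.21% higher, and the median over all genes tested was 0.01, with 54.6% of genes above 0. The median of the members is smaller than 0.10 log2 units, the SD between replicates of the median deviation per library, pooled over both groups. These deviations spread more among InR-DN libraries, from -0.07 to 0.15, than among controls, from -0.04 to 0.07. That SD describes single libraries and not a difference of group means. The 95% intervals of the 31 differences together covered -0.20 to 0.40, that is from 12.9% lower to 31.9% higher, and each included 0. The median was 0.14 without InR-DN replicate 2 and 0.11 without control replicate 3, and it was 0.05 when InR-DN replicate 1 was left out and 0.04 when replicate 3 of that group was, with 28 of 31 estimates above 0 in both cases. By assembly the medians were 0.07 for the alpha ring, 0.08 for the beta ring, 0.07 for the base and 0.07 for the lid.

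**Figure D2:**
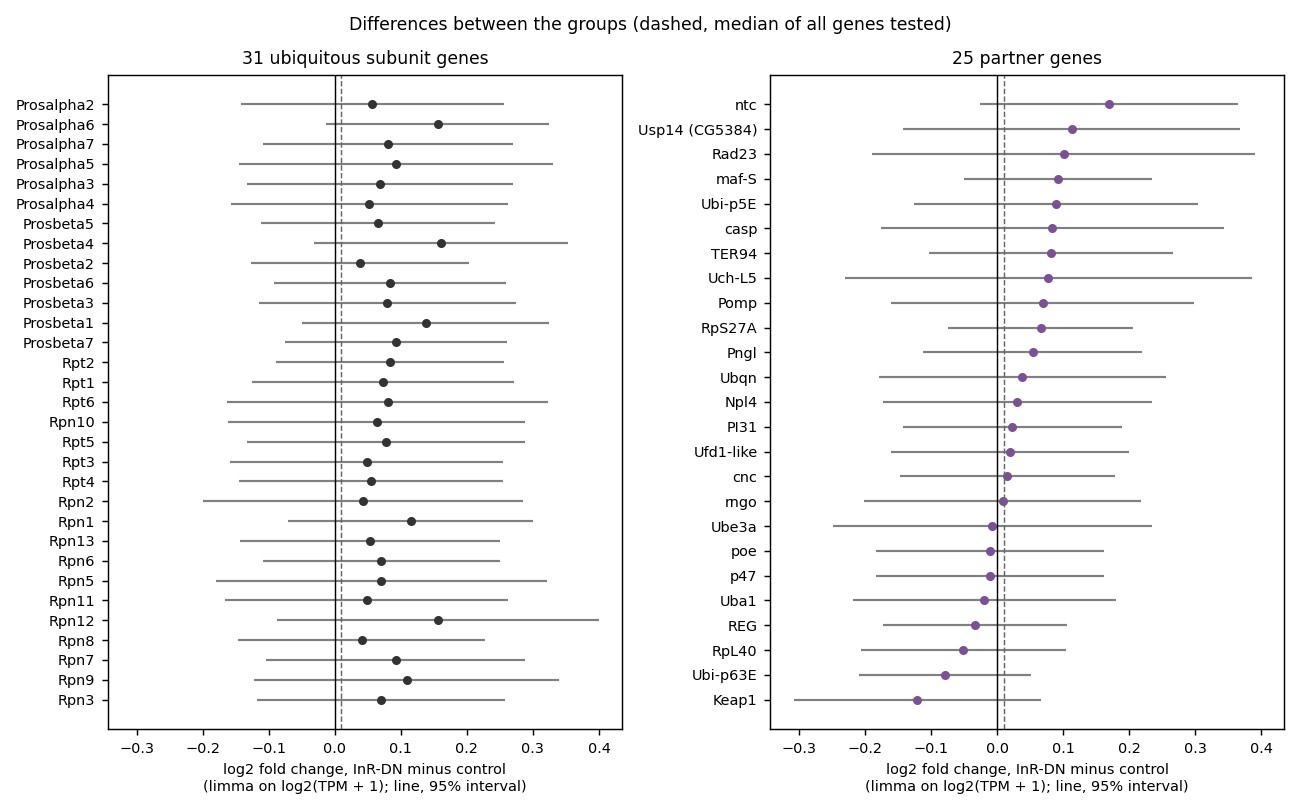
Log2 fold changes (InR-DN minus control, limma on log2(TPM + 1)) of the 31 ubiquitous subunit genes (left, by assembly) and of 25 partner genes (right, by size); points are estimates from 3 libraries per group, lines their 95% intervals, and the dashed line the median of all genes tested. Every interval includes 0. All 31 subunit estimates and 17 of 25 partner estimates lie above 0, against 54.6% of all genes tested.

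The genes with the smallest unadjusted p were Prosalpha6, Prosbeta4, Prosbeta1 and Rpn12, and none passed. Prosalpha6, a subunit of the alpha ring, lay at 297, 279.1 and 319 TPM in InR-DN libraries and at 257, 269.9 and 275 TPM in controls. It was the only ubiquitous member tested whose groups did not overlap, that is 1 of 31, against 2.58% of all genes with InR-DN libraries above and 3.78% with them below. Its log2 fold change was 0.16 (SE 0.07, limma unadjusted p = 0.0651, adjusted p = 1.00). Prosbeta4, a noncatalytic beta ring subunit, lay at 337, 294 and 346 TPM in InR-DN libraries and at 292, 277 and 303 TPM in controls, a log2 difference of 0.16 (SE 0.08, limma adjusted p = 1.00). Prosbeta4 had the largest log2 fold change of the members, and its InR-DN replicate 2 lay inside the control range. Prosbeta1, given above, had a log2 difference of 0.14 (SE 0.08, limma adjusted p = 1.00), and of 0.21 without InR-DN replicate 2. Rpn12, a lid subunit, lay at 228, 181 and 224 TPM in InR-DN libraries and at 189, 179.6 and 198 TPM in controls, a log2 difference of 0.16 (SE 0.10, limma adjusted p = 1.00). The Rpn12 estimate was 0.26 without InR-DN replicate 2, and 0.097 when InR-DN replicate 1 was left out. The smallest log2 fold change of the ubiquitous members was that of Prosbeta2, 0.04 (SE 0.07, limma adjusted p = 1.00). Leaving out 1 library moved the Prosbeta2 estimate to 0.0097 (InR-DN replicate 1), 0.0913 (InR-DN replicate 2), 0.0128 (InR-DN replicate 3), 0.01 (control replicate 2) or 0.058 (control replicate 3).

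The members moved together from library to library, and the libraries of a group did not all move alike. On the log2(TPM + 1) scale, the median deviation of the 31 genes from their control means was 0.14, -0.07 and 0.15 in InR-DN replicates 1 to 3 and -0.04, -0.03 and 0.07 in control replicates 1 to 3. Over all genes tested the same medians were 0.05, -0.07 and 0.02 in InR-DN replicates 1 to 3, and between -0.01 and 0.00 in controls. InR-DN replicate 2 was the lowest of its group for 30 of 31 genes, against 53.4% of all genes, and control replicate 3 the highest of the controls for 29 of 31, against 41.2% of all genes. Over all 6 libraries, either InR-DN replicate 1 or replicate 3 was the highest for 30 of 31, against 48.5% of all genes, and InR-DN replicate 2 was the lowest for 17 of 31, against 40.0% of all genes. In 26 of 31 genes InR-DN replicates 1 and 3 both lay above every control, against 15.9% of all genes. The 5 genes where they did not were Prosalpha2, Prosalpha3, Prosbeta3, Rpt3 and Rpn13. The pattern was not limited to subunit genes, and the 25 partner genes described below shared it in part. Among them InR-DN replicate 2 was the lowest of its group for 20, and control replicate 3 the highest control for 17. InR-DN replicate 1 or 3 was the highest library for 20 of the 25, and both lay above every control for 13. These patterns were chosen for description after the values had been seen.

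**Figure D3:**
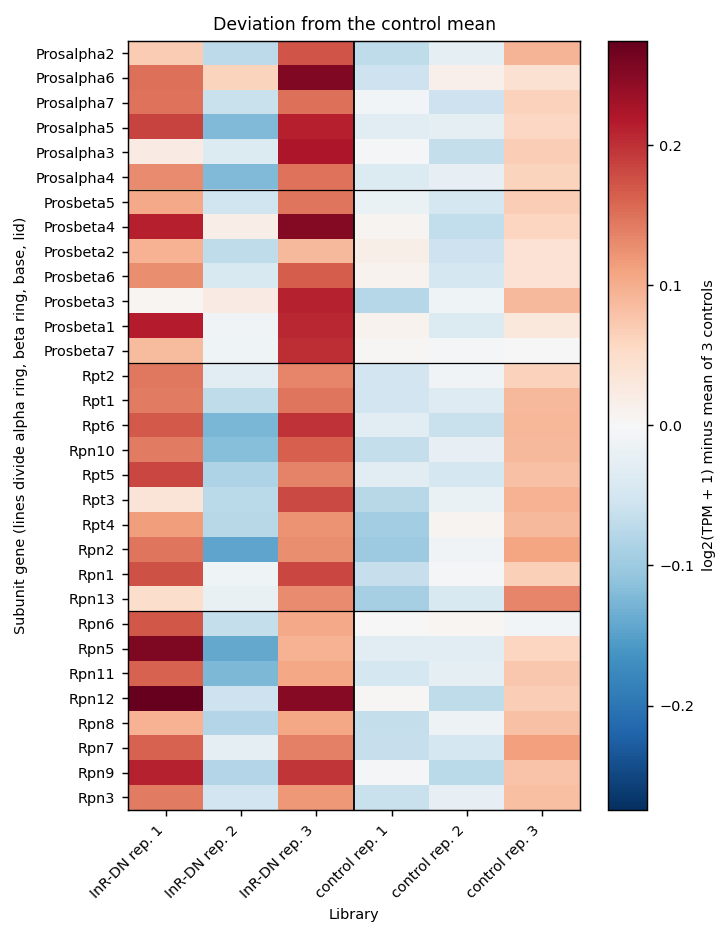
Deviation of each of 31 ubiquitous subunit genes (rows, by assembly) from its mean over the 3 control libraries, in log2(TPM + 1) units, for InR-DN replicates 1 to 3 and control replicates 1 to 3 (columns; red above, blue below the control mean). InR-DN replicates 1 and 3 lie above 0 for all 31 genes, with median deviations of 0.14 and 0.15, and InR-DN replicate 2 lies mostly below 0, with a median of -0.07.

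The gap between InR-DN replicate 2 and the other InR-DN libraries was smaller, but present, after the libraries were rescaled by the median of ratios. The median deviation of the 31 genes was then 0.10, 0.00 and 0.13 in InR-DN replicates 1 to 3 and -0.04, -0.02 and 0.06 in controls, and over all genes it lay between -0.01 and 0.01. InR-DN replicate 2 was then the lowest of its group for 25 of 31 genes, against 41.4% of all genes, and the lowest of all 6 for 4 of 31, against 25.0% of all genes. InR-DN replicates 1 and 3 lay above every control for 22 of 31, against 10.9% of all genes, and one of them was the highest library for 30 of 31, against 38.2%. Control replicate 3 was the highest control for 29 of 31, against 40.2%, and the groups did not overlap, with InR-DN higher, for 4 of 31, against 2.82%. Of the 25 partner genes after this rescaling, InR-DN replicate 2 was the lowest of its group for 13. Control replicate 3 was the highest control for 16 of them, and InR-DN replicates 1 and 3 lay above every control for 9. Without InR-DN replicate 2, with TPM as deposited, the median log2 fold change of the members was 0.14, with 31 of 31 above 0, against 0.04 over all genes, with 59.2% above 0, and 15 of 31 members had an unadjusted limma p under 0.05 with higher means, against 5.08% of all genes. None of them passed adjustment (limma, smallest adjusted p = 0.440), and 0% of all genes passed. Markers of organs also varied over the libraries. In InR-DN replicates 1 to 3 the ovary and oocyte markers summed to 1568, 1303 and 1318 TPM and the gut markers to 12739, 16853 and 18836 TPM, against 1325, 1333 and 1454 TPM and 17370, 18260 and 17762 TPM in control replicates 1 to 3. The 2 oenocyte markers summed to 6764, 9310 and 7435 TPM in InR-DN libraries and 10625, 10014 and 9345 TPM in controls. The sum was lower in every InR-DN library. Its larger part, Cyp4g1, overlapped, at 8996 TPM in InR-DN replicate 2 and 8932 TPM in control replicate 3. The other marker, eloF, was lower in every InR-DN library, as were 3.78% of all genes tested. Among the gut markers, Jon25Biii was higher in every InR-DN library, as were 2.58% of all genes tested. It lay at 606, 1065 and 1239 TPM in InR-DN libraries and at 496, 325 and 507 TPM in controls. The 3 flight muscle markers summed to 154, 217 and 157 TPM in InR-DN libraries and 178, 154 and 149 TPM in controls. The part of these marker levels in the pattern was not tested. In bulk RNA fewer cells of a type and less RNA per cell cannot be told apart.

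The spread between replicates was wider among InR-DN than among control libraries for most members, a difference that was not tested. The coefficient of variation over 3 libraries had a median of 8.41% over the 31 genes in the InR-DN group and 4.61% in the control group. The same median over all genes tested was 11.98% in the InR-DN group and 7.60% in the control group. It was larger in the InR-DN group for 30 of 31 subunit genes, with Rpn13 the exception, and for 72.2% of all genes. The tightest was Prosbeta7 in controls, at 0.229%, and the widest Rpn5, a lid subunit, in the InR-DN group, at 13.6%. Rpn5 lay at 278, 211 and 249 TPM in InR-DN libraries and at 228.3, 228 and 243 TPM in controls. All these coefficients are on TPM as deposited, and none was taken after rescaling. The median-of-ratios factors were 1.034, 0.951 and 1.014 in InR-DN replicates 1 to 3 and 0.999, 0.996 and 1.001 in controls. The part of such library-wide shifts in the wider spread was not tested.

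Relative to each other the subunit genes moved little. The level of each gene was divided by the median ubiquitous subunit gene of its library, which removes shifts that all subunits share. On the log2 scale this relative level ranged over the 6 libraries by a median of 0.12, and by less than 0.2 for 29 of 31 genes. The widest range was 0.23, for Rpn12. No such range was taken over other genes, so these values do not set subunit genes apart from others. The relative levels of the groups did not overlap for 4 of 31 genes, with InR-DN libraries higher in all 4, against 1.10% of all genes tested with InR-DN higher and 5.32% with InR-DN lower. These were Prosbeta4, Prosalpha6, Prosbeta1 and Rpn1, a scaffold subunit of the base, with differences in mean relative log2 level of 0.11, 0.10, 0.09 and 0.06. Of these, 3 are among the 4 with the smallest p given above, but both rankings use the same values, so this overlap is not separate support. The shares over all genes are not a like background for these 4 members, because the divisor is the median of the members themselves. That median was 240, 212 and 249 TPM in InR-DN replicates 1 to 3, and 223, 222 and 230 TPM in controls. Against controls, dividing by it lowers the relative level of other genes in InR-DN replicates 1 and 3. It raises that level in InR-DN replicate 2, where the median was below every control. The relative log2 level of Prosbeta4 was 0.49, 0.47 and 0.48 in InR-DN libraries and 0.39, 0.32 and 0.40 in controls, so all InR-DN libraries were above all controls. A single value over 3 against 3 libraries could not go below p = 0.1 in an exact permutation test.

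The testis-type genes were at or near 0. Of 11, 9 lay below 1 TPM in every library and 8 had no more than 3 reads in any library, a floor that corresponds to 0.0781 to 0.205 TPM depending on the gene and library and covers counting error only. Prosbeta4R1, Rpn12R and Prosbeta4R2 had 1 read each over all 6 libraries, in InR-DN replicate 2, InR-DN replicate 3 and control replicate 3. Rpn13R had 1, 0 and 0 reads in InR-DN libraries and 0, 2 and 0 in controls, and Rpt4R had 1, 0 and 1 in InR-DN libraries and 0, 1 and 0 in controls. Prosbeta2R1 had 0, 1 and 1 reads in InR-DN libraries and 0, 1 and 0 in controls, so none of these genes was above the floor in any library. Prosalpha3T had 6 reads, all in control replicates 1 and 2, and 0 in each InR-DN library. Its counterpart Prosalpha3, an alpha ring subunit, lay at 270.1, 259 and 310.1 TPM in InR-DN libraries and at 265, 254 and 279 TPM in controls. Rpt4, the ATPase counterpart of Rpt4R, lay at 187, 164 and 188 TPM in InR-DN libraries and at 161, 173 and 183 TPM in controls, so both counterparts were abundant in every library. Prosalpha4T2, a paralog of the X-linked Prosalpha4, had 3, 3 and 1 reads in InR-DN libraries and 2, 2 and 1 in controls. Prosbeta2R2 had 2, 8 and 0 reads in InR-DN libraries and 4, 7 and 4 in controls. Summed, the testis-type genes made up 0.0278 ± 0.00353% of all proteasome subunit TPM in InR-DN libraries and 0.0299 ± 0.00253% in controls (SD, n = 3 per group), a difference smaller than the spread between replicates.

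**Figure D4:**
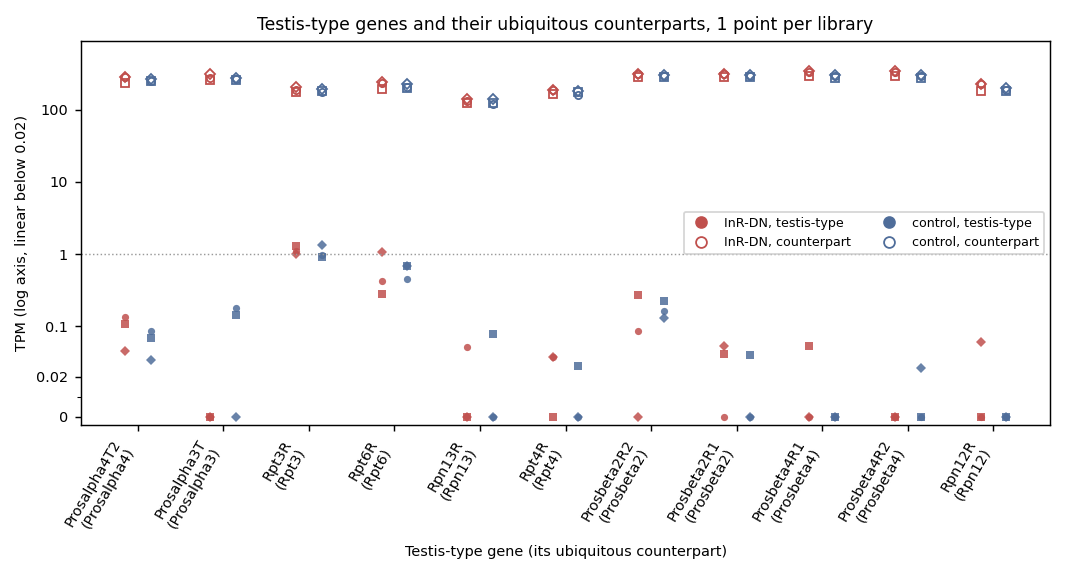
TPM (log axis, linear below 0.02) of the 11 testis-type genes (filled) and of the ubiquitous counterpart of each (open, named in brackets), 1 point per library with InR-DN left and control right of each position; the dotted line marks 1 TPM. Counterparts lie above 100 TPM in every library, and Rpt3R and Rpt6R are the only testis-type genes that reach 1 TPM in any library.

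The highest of them were a pair of ATPase paralogs of the base. Rpt3R lay at 1.09, 1.29 and 1.01 TPM in InR-DN libraries and at 0.965, 0.915 and 1.34 TPM in controls, with 26 to 45 reads per library and 198 in all. Its counterpart Rpt3 lay at 187, 174 and 207 TPM in InR-DN libraries and at 173, 180.3 and 195 TPM in controls, which is 134 to 204 times the level of Rpt3R. Rpt3R was the only testis-type gene abundant enough to be tested, with a log2 fold change of 0.04 (SE 0.14, limma adjusted p = 1.00). Rpt6R lay at 0.429, 0.278 and 1.06 TPM in InR-DN libraries and at 0.447, 0.682 and 0.687 TPM in controls, with 9 to 27 reads per library. Its counterpart Rpt6 lay at 236, 192 and 241 TPM in InR-DN libraries and at 206, 201 and 224 TPM in controls, 228 to 691 times as high. Within the InR-DN group Rpt3R was highest and Rpt6R lowest in replicate 2, the library where both counterparts were lowest. The low testis-type levels stood beside testis markers that were below 1 TPM for 15 of 16 genes, and 10 of the 16 were listed at 0 in at least 3 libraries.

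Genes that act with the proteasome showed no difference between the groups that passed the test either. The 25 partner genes were chosen for roles in assembly, activation, ubiquitin supply, substrate delivery, deubiquitination and regulation. Of these, 0 passed at an adjusted p of 0.05 (limma), against 0% of all genes tested. An unadjusted p under 0.05 was found for 0 of 25, against 1.13% of all genes with higher and 2.02% with lower means. Means were higher for 17 and lower for 8, with a median log2 fold change of 0.03. Over all genes tested 54.6% lay above 0, with a median of 0.01. Pomp, the maturation chaperone of the core, lay at 123, 105 and 131 TPM in InR-DN libraries and at 114, 108 and 119 TPM in controls, lowest in InR-DN replicate 2 and highest in InR-DN replicate 3. Usp14, listed as CG5384, is a deubiquitinase of the base, and lay at 221, 172 and 208 TPM in InR-DN libraries and at 180.3, 175 and 198 TPM in controls. By contrast REG, the alternative PA28 gamma cap of the core, lay at 272, 256 and 249.9 TPM in InR-DN libraries and at 264, 266 and 266 TPM in controls. The smallest unadjusted p belonged to ntc, an F-box protein of a ubiquitin ligase that in Drosophila acts with the proteasome regulator PI31. It lay at 54.6, 47.6 and 47.9 TPM in InR-DN libraries and at 42.7, 44.6 and 45.7 TPM in controls, a log2 difference of 0.17 (SE 0.08, limma unadjusted p = 0.0799, adjusted p = 1.00), which was 0.11 without InR-DN replicate 1.

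Cnc is the Drosophila relative of the mammalian Nrf transcription factors that drive proteasome genes when proteolysis is impaired. Its RNA lay near the same level throughout, and its protein was not measured. The cnc gene lay at 90.0, 82.4 and 82.8 TPM in InR-DN libraries and at 82.7, 87.0 and 82.7 TPM in controls, a log2 difference of 0.02 (SE 0.07, limma adjusted p = 1.00). Its inhibitor Keap1 lay at 17.0, 17.2 and 16.2 TPM in InR-DN libraries and at 18.8, 17.9 and 18.3 TPM in controls, so that all InR-DN libraries lay below all controls, with a log2 fold change of -0.12 (SE 0.08, limma adjusted p = 1.00). The gene of maf-S, the partner with which Cnc binds DNA, lay at 129.6, 123 and 131 TPM in InR-DN libraries and at 122, 119.8 and 118 TPM in controls, where all InR-DN libraries lay above all controls, with a log2 fold change of 0.09 (SE 0.06, limma adjusted p = 1.00). The polyubiquitin gene Ubi-p63E lay at 166, 164 and 169.8 TPM in InR-DN libraries and at 175, 177 and 176 TPM in controls, lower in all 3 InR-DN libraries, with a log2 fold change of -0.08 (SE 0.05, limma adjusted p = 1.00). The other ubiquitin gene of this kind, Ubi-p5E, had overlapping groups and a log2 fold change of 0.09, which was 0.17 without InR-DN replicate 2 and 0.015 when InR-DN replicate 1 was left out. Groups did not overlap for 4 of the 25 partner genes, 2 with InR-DN higher, against 2.58% of all genes, and 2 with InR-DN lower, against 3.78%.

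The 1 ubiquitous member without a measurable level was Prosalpha1, an alpha ring subunit gene. It was listed at 0, 0.0230 and 0 TPM in InR-DN libraries and at 0.0556, 0 and 0 TPM in controls, while the other 6 alpha genes lay above 235 TPM. In the BDGP6.54 annotation it lies on arm 2R at 7827303 to 7828678, minus strand, and a copy annotated as Prosalpha1R (listed as CG30382, at 7830413 to 7831771 on the same strand) follows after a gap of 1734 bases, with 3 exons of the same lengths (100, 177 and 580 bases). Both copies were listed with the same reads, which came to 0.5 of a read each in InR-DN replicate 2 and 1 read each in control replicate 1. The sequences of the copies were not compared, and no source used here states how reads that match more than 1 place were counted. The part of the copy in the near-0 value was not tested, and no comparison was made for Prosalpha1.

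The 43 genes are spread over all major arms. The ubiquitous genes number 10 on 2R, 9 on 3R, 5 on 3L, 4 on 2L and 4 on X. Most do not neighbour each other, and the closest ubiquitous pairs are Rpn9 and Rpt5 on 3R, 19413 bases apart, and Rpn12 and Prosbeta6 on 3L, 25377 bases apart. Their genes are compact, with 1 to 5 exon blocks. Exons of 13 of the 32 ubiquitous genes overlap exons of another gene on the opposite strand, over up to 15.7% of the exon length in Rpn9, and reads from such stretches cannot be told apart because no source used here states whether counting used strand.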

How the data were processed

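The authors deposited 1 table in TPM that lists 15010 genes for 6 libraries, and each library sums to 1000000, per the file headers and the values. The submitters' processing notes list TopHat and edgeR but no version or role, and no source used here names the build, annotation or counter. RNA was extracted with Trizol and polyA libraries were made, per the labels' protocols.

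Column names gave each library's group and number. Gene symbols were looked up in the BDGP6.54 annotation by current (11527) or older symbol (3330), which left 153 unmatched; all 43 members matched by current symbol. TPM times annotated exon length gave whole multiples of 1 read for 14071 genes (94.7% of those matched, relative tolerance 1e-06), including 42 members. Floors are 3 reads per library.

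The test was limma 3.58.1 (R 4.3.3) on log2(TPM + 1), a scale that understates changes of low genes, with an intensity trend and no covariate. It covered the 10816 genes that reached 1 TPM in 3 or more libraries. Of the members, 32 passed this filter. Results were recomputed with median-of-ratios or quantile scaling, a pseudocount of 0.1 or 5, a minimum of 5 TPM or none, no trend, a replicate block, leaving out each library and, added after seeing the data, limma voom on the read numbers derived above, for genes that reached 10 of them in 3 or more libraries, and levels by library after median-of-ratios rescaling.

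All members are accounted for. Values per library, in TPM or reads, are given for the highest and lowest gene of each assembly, the 4 with the smallest p, the largest and smallest change, testis-type genes with their counterparts, and the partners with the smallest p plus cnc, Keap1 and Pomp. Rpn1, Rpn5, Rpn10, Rpn11, Usp14, REG, Ubi-p5E and the marker Jon25Biii were chosen after their values were seen. The members, lists and tests were chosen with earlier results of these data known. No sequences were used.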

Additional observations from a re-analysis of the deposited data

How the results depend on the processing

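No proteasome member and no partner gene passed in any of the 15 alternatives, and the median log2 fold change of the ubiquitous members stayed above 0, at 0.06 to 0.07 in the other fits and at 0.04 to 0.14 when 1 library was left out. The number of all genes called was 1 with a pseudocount of 0.1, against 0, and 0 to 1 without 1 library, the 1 arising where InR-DN replicate 1 or control replicate 1 was left out. The ubiquitous members above 0 numbered 28 without InR-DN replicate 1 or 3, 30 without control replicate 1 and 31 in the other alternatives. Of all genes, 38.6% were above 0 without InR-DN replicate 1, 52.3% without InR-DN replicate 3 and 54% without control replicate 1. The other alternatives gave 50.9% to 59.2%. The number of members with an unadjusted p under 0.05 was 2 with median-of-ratios rescaling (Prosalpha6 and Prosbeta4), against 3.18% of all genes. It was 0 to 15 without 1 library, the 15 arising without InR-DN replicate 2, against 8.69% of all genes. Of 57 named genes, 19 had a log2 fold change that changed sign under at least 1 alternative, and none of these was past the threshold. When 1 library was left out, the members among them ranged from -0.001 to 0.1211 for Prosalpha2, -0.0072 to 0.1218 for Prosalpha3, -0.0184 to 0.1089 for Rpt3, -0.009 to 0.137 for Rpn2, -0.0224 to 0.1754 for Rpn5, -0.0083 to 0.1341 for Rpn11 and -0.0099 to 0.1337 for Rpt3R. The partner genes ranged from -0.0104 to 0.0542 for PI31, -0.0083 to 0.1903 for Uch-L5, -0.0809 to 0.0533 for Uba1, -0.056 to 0.0783 for Npl4, -0.0291 to 0.0778 for Ufd1-like, -0.0193 to 0.2215 for Rad23, -0.0347 to 0.1263 for Ubqn, -0.0434 to 0.0876 for rngo, -0.0252 to 0.0395 for cnc, -0.0532 to 0.0407 for p47, -0.0589 to 0.0866 for Ube3a and -0.0511 to 0.0154 for poe. Under quantile normalization the log2 fold change was -0.0004 for PI31, -0.0177 for rngo and -0.0078 for cnc.

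With the replicate block, 0 genes were called, 362 had an unadjusted p under 0.05, none of them a member, and the median of the members was 0.07. Deviations of same-numbered libraries from their group means correlated at -0.41, -0.18 and -0.13 over 10816 genes. Deviations from a mean of 3 libraries constrain each other, so these values cannot show whether the numbers pair the samples. With 3 libraries per group, 1 library can move a value as far as the groups differ. TPM sums to a fixed total in each library, so a few abundant genes can shift all others.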
